A study of Mus musculus with 60 samples.

Results

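Organoids that had been picked and sequenced one at a time were compared with bulk cultures of the same mice. Both are intrahepatic cholangiocyte organoids, which are hollow epithelial spheres grown from bile duct fragments of the liver. The comparison held 31 of the 60 libraries of the series, of which 25 were single organoids and 6 were technical replicates of bulk cultures. Bulk cultures were matched to organoids by the set number in the labels, and the kept organoids were those that the study retained. The kept organoids of Set1 (8 organoids), Set3 (5 organoids) and Set4 (12 organoids) were added up within each set, the 2 technical replicates of each matching bulk culture were added up as well, and the resulting 6 sums gave 3 set-matched pairs. Another 6 organoids of these sets, which the study set aside, were left out. All cultures came from C57BL/6N mice, with the age given as 3-4 months in the labels and the sex as male in the study's methods, and each set was established from the liver of 1 mouse. None of the groups carried a transgene or received a treatment. The single organoids were taken at passage 11 in Set1, passage 3 in Set3 and passage 4 in Set4, and the bulk cultures used here at passage 11 in Set1 and passage 4 in Set3 and Set4, so the passage differed by 1 in Set3.

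The single organoids had been kept in a shaking suspension with dilute Matrigel for at least 2 passages, and their messenger RNA was caught on oligo(dT) beads, whereas the study's methods give a column kit for total RNA of bulk organoids. The sample labels name the beads for all libraries, and no source used here says whether the bulk cultures grew in domes or in suspension. Dying organoids were passed over when single ones were picked, whereas a bulk culture holds all of them. Method, culture and selection therefore cannot be told apart in any difference described here, nor can fewer cells of a type and less RNA per cell. The comparison asks how far the sum of picked organoids resembles a bulk culture of the same set. No source used here says that the organoids were picked from these very cultures.

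Cholangiocyte organoids are proliferative ductal cells. In the liver, cholangiocytes line the bile ducts and secrete chloride and bicarbonate through Cftr, the chloride channel mutated in cystic fibrosis. Under stress or infection, epithelial cells switch on interferon-stimulated genes, and NF-kB switches on chemokines such as Ccl2. Dividing cells switch on S phase genes through E2F and, later, genes of G2 and mitosis, whose promoters often carry the cell cycle homology region (CHR).

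The sums of single organoids held 33,239,204 counts in Set1, 12,310,551 in Set3 and 38,543,373 in Set4, and the sums of bulk libraries 4,823,716, 5,296,188 and 5,530,899. Thinned to the depth of the shallowest library, 1,057,648 counts in the genes tested, a single organoid still showed 12,851 to 13,422 genes and a bulk library 12,793 to 13,561. Epcam, Krt7, Krt19, Sox9 and Spp1, the ductal markers, were present in all 6 sums, and Spp1 lay at 1643 to 3458 CPM (counts scaled to equal library totals) in single organoid sums and 2698 to 3716 CPM in bulk sums. Of the hepatocyte markers, Alb lay at 1.01 to 8.66 CPM in single organoid sums and 0.207 to 1.89 CPM in bulk sums. Cps1 was at 0 in all of them. Ttr, the thyroxine carrier, lay at 1464, 511 and 1384 CPM against 677, 534 and 704 CPM. Apoa1 lay at 0.962, 0.244 and 0.0259 CPM in single organoid sums against 4.97, 0.755 and 1.27 CPM, which are few counts in Set3 and Set4. Hnf4a lay at 37.0, 29.2 and 23.8 CPM against 46.0, 40.0 and 48.6 CPM, a difference that the test described below did not call. The 39 measured of 66 hepatocyte genes summed to 1457 to 4038 CPM in single organoid sums and 1416 to 1619 CPM in bulk sums. The 8 measured of 20 macrophage markers summed to 3.29 to 6.17 CPM in single organoid sums and 5.18 to 10.5 CPM in bulk sums. The macrophage marker Cd68 lay at 1.38 to 1.53 CPM and 3.94 to 5.24 CPM. The 14 measured of 20 endothelial markers summed to 34.3 to 45.6 CPM and 22.6 to 24.4 CPM, with Pecam1 at 0.726 to 0.752 CPM and 0.189 to 1.63 CPM. The 9 measured of 20 mesenchymal markers summed to 11.3 to 36.8 CPM and 22.2 to 102.9 CPM, with Col1a1 at 0.207 CPM or less. The 6 measured of 18 blood cell markers summed to 19.1 to 21.1 CPM and 27.1 to 48.0 CPM, with Ptprc at 0.189 CPM or less. Adgre1, Cdh5, Pdgfrb and Cps1 were at 0 in all sums, but were not among the genes counted in both groups. A gene missing from a group was set to 0. The part of such cells in any result was not tested.

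A summed set of organoids lay further from its own bulk culture than from the other sets of organoids. After thinning to equal depth, the root mean square difference in log2 CPM over 15,276 genes was 1.48 ± 0.142 (SD, n = 3 pairs) between a sum of organoids and its own bulk culture, with a range of 1.34 to 1.62. Between organoid sums of different mice it was 0.660 to 0.703, and between bulk cultures of different mice 0.486 to 0.788. The distance to the bulk cultures of the other mice, 1.36 to 1.68, covered nearly the same range. Single libraries, compared within each set, gave the same order. In Set1, 2 organoids differed by a median of 0.664 (0.544 to 0.928, 28 pairs) and an organoid and a bulk library by 1.44 (1.17 to 1.57, 16 pairs). In Set3 these values were 0.608 (0.536 to 0.731, 10 pairs) and 1.33 (1.19 to 1.42, 10 pairs), and in Set4 0.620 (0.530 to 0.838, 66 pairs) and 1.20 (1.07 to 1.38, 24 pairs). In each set the nearest organoid and bulk library were further apart than the 2 most different organoids. Technical replicates of 1 bulk culture differed by 0.533 to 0.541.

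**Figure D1:**
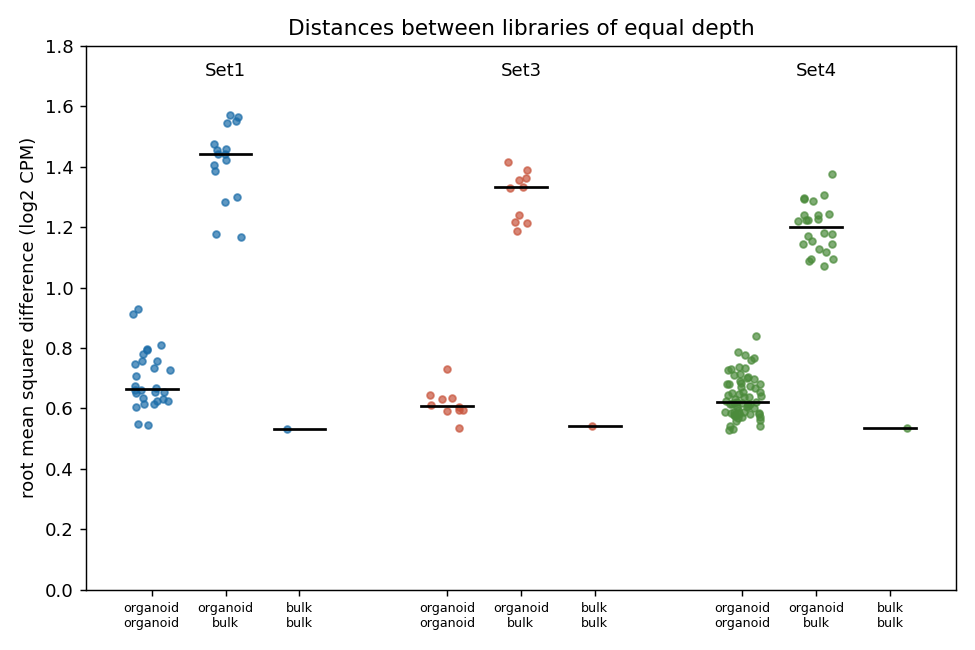
Root mean square difference in log2 CPM (vertical axis) between pairs of libraries thinned to equal depth, by set. Each point is 1 pair, bars are medians, and the 3 groups in each set are pairs of organoids, pairs of an organoid and a bulk library, and the pair of bulk technical replicates. Organoid and bulk pairs (medians 1.44, 1.33 and 1.20) lie above all organoid pairs of their set.

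Among 15,276 genes tested with edgeR's quasi-likelihood test on the 6 sums, with set as a block, 4038 (26.4%) were higher and 3218 (21.1%) lower in single organoids at a Benjamini-Hochberg adjusted p below 0.05. Of the 7256 genes called, 7207 had the same direction in each of the 3 pairs. The calls were made on these same pairs, so this agreement adds no separate support. Changes over 2-fold made up 3594 of the genes called higher and 2383 of those called lower. Without the Set3 pair the counts were 2664 and 1687. A rule with no model gave a similar picture. Among 6369 genes with an average of at least 4 log2 CPM, 1439 (22.6%) lay higher in every kept organoid than in both technical replicates of the bulk culture in all 3 sets, and 1332 (20.9%) lay lower in every one. Within a single set the bulk culture fell outside the range of its organoids for 69.0% of these genes in Set1, 75.9% in Set3 and 56.6% in Set4. The ranges rest on 8, 5 and 12 organoids and widen with their number, so these shares do not rank the sets.

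Genes of cell division were mostly higher in single organoids. Among all genes tested, 26.4% were called higher and 21.1% lower. Of 58 tested genes of G2 and M phase, 39 were called higher and 2 lower, with a median log2 fold change of 1.68 against 0.07 over all genes. Of 58 tested S phase genes, 31 were higher and 1 lower, with a median of 1.08. For S phase, 51 were called higher without the Set1 pair and 20 without the Set3 pair.

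Mki67, the proliferation marker that coats mitotic chromosomes, lay at 242, 316 and 242 CPM in the organoid sums of Set1, Set3 and Set4 and at 10.8, 10.9 and 11.1 CPM in the bulk sums. The 25 organoids ranged from 126 to 518 CPM and the 6 bulk libraries from 9.89 to 13.2, so the groups stood far apart in every set. The log2 fold change was 4.60 ± 0.27 (SE, adjusted p = 1.1e-06 in edgeR). Hmgb2, a chromatin protein of dividing cells, lay at 2395, 3585 and 2976 CPM against 133, 58.4 and 62.8 CPM, a log2 fold change of 5.23 ± 0.40 (adjusted p = 5.8e-06). The lowest organoid, at 1440 CPM, was still far above the highest bulk library, at 160 CPM. Hells, a chromatin remodeller of S phase, lay at 188, 317 and 228 CPM against 16.2, 10.1 and 12.1 CPM, and Cenpe, a kinetochore motor, at 239, 287 and 217 CPM against 17.9, 10.3 and 14 CPM. Prc1, which bundles microtubules in the dividing spindle, lay at 75.2, 123 and 79.9 CPM against 5.40, 3.75 and 6.64 CPM. All of these genes had log2 fold changes between 4.11 and 5.23.

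The group did not move as one. Cdk1, the kinase that drives mitosis, went the other way, with 25.7, 36.6 and 49.9 CPM in organoid sums and 173, 66.1 and 68.8 CPM in bulk sums (log2 fold change -1.34 ± 0.40, adjusted p = 0.019, and 0.0503 without the Set1 pair). Gtse1, a mitotic regulator, was lower as well (-1.68 ± 0.42), and so was Pcna, the sliding clamp of replication, at 47.8, 72.1 and 82.5 CPM against 161, 104 and 101 CPM (-0.85 ± 0.31, adjusted p = 0.040). Top2a, which untangles sister chromatids, lay at 250, 467 and 310 CPM against 42.1, 35.3 and 30.7 CPM. Thus Top2a and Cdk1, both markers of G2 and mitosis, differed in opposite directions between the same libraries. The messages of replication-dependent histone genes carry no poly(A) tail in dividing cells. Of 52 such genes tested, 26 were higher and 3 lower, against 26.4% and 21.1% over all genes. Without the Set4 pair 15 were higher, and against the bulk cultures of the other passage 15. Hist1h2ag lay at 81.9, 138 and 175 CPM in organoid sums and 12.3, 4.5 and 5.11 CPM in bulk sums.

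The CHR letters TTTGAA were looked for on both strands in RefSeq promoters of GRCm38.p6, from 250 bases before to 50 after each start, to show what the members of the G2 and M phase list share outside the counts. They were found in 38 of 50 list members with a promoter (76.0%), in 6 of 41 S phase genes (14.6%), in 20.2% of 27,025 genes with a promoter and in 14.6% of 9888 tested genes with one. Among G2 and M phase genes called higher the share was 27 of 33 (81.8%), among those not called 10 of 15 (66.7%), and among those called lower 1 of 2, namely Cdk1. In the following windows of 24 bases, given 5′ to 3′ on the strand of the gene, capitals mark TTTGAA.
Prc1: ctggctcggTTTGAAttccgcggg
Mki67: gcgccagaaTTTGAAccgccgttt
Cdk1: attggctccTTTGAAcgtctacgt
These windows lie at chr7:80294437-80294460, chr7:135716481-135716504 and chr10:69352969-69352992. A match is a string of letters and not evidence of binding.

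**Figure D2:**
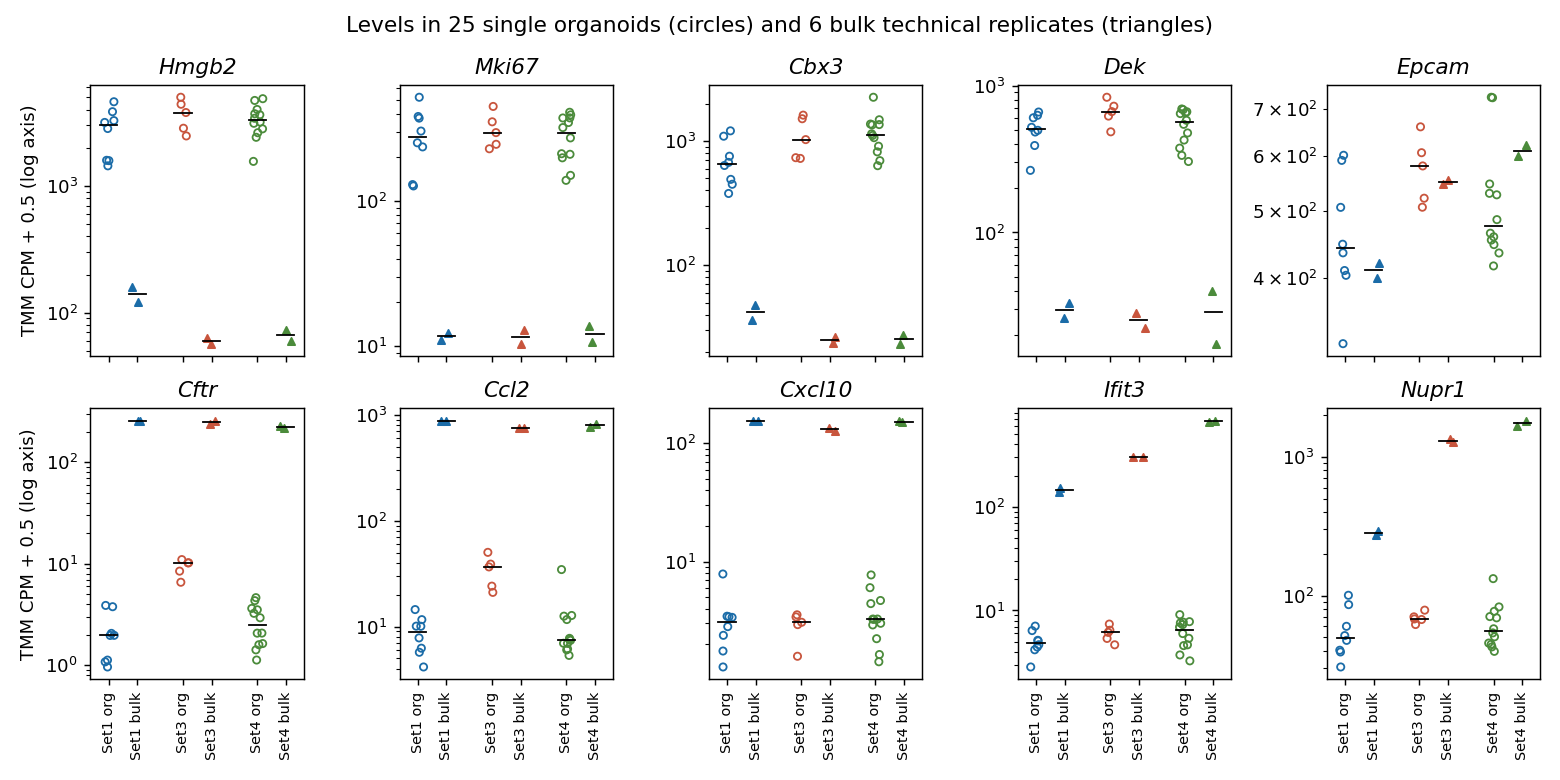
TMM-normalised CPM plus 0.5 on a log axis for 10 genes in 25 single organoids (circles) and 6 bulk technical replicates (triangles), by set, with bars at medians. Hmgb2, Mki67, Cbx3 and Dek are higher in every organoid, Cftr, Ccl2, Cxcl10, Ifit3 and Nupr1 are higher in every bulk library of their set, and Epcam overlaps in all 3 sets.

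Interferon-stimulated genes were lower in single organoids almost throughout. Of 74 tested members of the list, 62 were called lower and 1 higher, with a median log2 fold change of -2.89. Among all genes tested, 21.1% were called lower and 26.4% higher. Of 48 members above 4 log2 CPM, 39 were lower in every organoid than in both bulk replicates in all 3 sets. The share over all 6369 genes at that level was 20.9%. Cxcl10, a chemokine that attracts T cells, lay at 2.11, 2.53 and 2.77 CPM in the organoid sums and 150, 128 and 147 CPM in the bulk sums (log2 fold change -5.85 ± 0.30, adjusted p = 5.0e-07 in edgeR). Single organoids reached at most 7.35 CPM. Ifit3, which restricts viral RNA, lay at 4.13, 5.45 and 5.65 CPM against 139, 293 and 648 CPM (-5.90 ± 0.39). The groups did not overlap in any set, and the bulk level of Ifit3 varied more between mice than the organoid level.

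Irf7 and B2m were among the members called lower. Irf7, which amplifies interferon production, lay at 5.21, 11.1 and 6.42 CPM against 91.1, 254 and 423 CPM. B2m, the light chain of MHC class I, was at 204, 258 and 220 CPM against 1012, 1994 and 2457 CPM, so the difference held for an abundant message too. The 1 member called higher was Eif2ak2, the kinase that senses double-stranded RNA, at 47.2, 83.8 and 31.9 CPM against 11.0, 19.3 and 25 CPM.

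In total the interferon list took 1910 to 2994 CPM of the organoid sums and 6536 to 17,210 CPM of the bulk sums. With the bulk cultures of the same mice at the other passage (passage 4 for Set1 and passage 11 for Set3 and Set4), 25 instead of 62 members were called lower. In the dome and suspension cultures of the same series, which came from pools of other animals and are scaled to their own totals, Ifit3 lay at 5.07 to 20.2 CPM and 0.717 to 2.35 CPM, and Cxcl10 at 0.563 CPM or less and 0.414 to 0.717 CPM. The bulk cultures of the sets thus held the highest levels of these 2 genes among all cultures compared.

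The core of the interferon-stimulated response element (ISRE), a GAAA that recurs after any 2 bases, was present on either strand in the promoters of 28 of 55 list members with a RefSeq promoter (50.9%) and of 3.99% of all genes and 3.65% of tested genes with one. Among members called lower it was 21 of 46, and among those not called 6 of 8. In the windows below, on the strand of the gene, capitals mark the element, which is read on the opposite strand in Ifit3.
Ifit3: tggtaagTTTCACTTTCctcttct
Cxcl10: cgctttgGAAAGTGAAActtacct
They lie at chr19:34583366-34583389 and chr5:92349086-92349109 of GRCm38.p6.

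Chemokines and other NF-kB targets were lower in the picked organoids as well. Of 46 tested genes of the TNF and NF-kB response, 30 were lower and 5 higher (median -1.34), against 21.1% and 26.4% over all genes. Against the bulk cultures of the other passage, 12 were lower. Ccl2, the monocyte chemoattractant, lay at 6.95, 33.7 and 8.82 CPM in the organoid sums and at 849, 727 and 769 CPM in the bulk sums (log2 fold change -5.96 ± 0.50, adjusted p = 1.1e-05). Ccl20, which attracts lymphocytes through Ccr6, lay at 74.4, 48.6 and 37.3 CPM against 846, 895 and 560 CPM. Saa3, an acute-phase protein, lay at 3.07, 8.76 and 3.76 CPM against 18.6, 338 and 159 CPM, and Csf3, the granulocyte growth factor, at 0.434, 6.55 and 0.933 CPM against 10.8, 93.6 and 54.8 CPM. In both genes the Set1 bulk culture, at passage 11, held far less than the other 2, and Csf3 was not called against the bulk cultures of the other passage. Ccl2 lay at 1.69 to 5.83 CPM in domes and 51.2 to 233 CPM in suspension cultures.

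Genes of the unfolded protein and integrated stress response were mostly lower. Of 38 such genes, 23 were lower and 6 higher (median -1.12), where 21.1% of all genes were lower. The share of higher calls lay below the 26.4% over all genes. Against the other passage 12 were lower, and 2 and 3 were higher without the Set1 and the Set3 pair. Trib3, a target of Atf4, lay at 3.26, 10.9 and 4.24 CPM in organoid sums and 84.9, 126 and 101 CPM in bulk sums (-4.27 ± 0.32). Chac1, which degrades glutathione, lay at 2.23, 11.2 and 3.44 CPM against 77.1, 59.9 and 64.7 CPM, and Asns, asparagine synthetase, at 30.4, 43.0 and 37.6 CPM against 245, 245 and 204 CPM. Nupr1, a stress-induced chromatin protein, lay at 43.4, 68.1 and 63.7 CPM against 274, 1270 and 1697 CPM.

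The 6 members called higher were Hsp90b1, Hyou1, Calr, Hspa5, Canx and Dnajc3, all of them chaperones or co-chaperones of the endoplasmic reticulum, and 3 members were higher once the trend with transcript length and A-rich stretches, described further on, was removed. Hsp90b1 lay at 1263, 1049 and 853 CPM against 251, 438 and 403 CPM (1.55 ± 0.29), and Hspa5 (BiP) at 1289, 1025 and 728 CPM against 364, 686 and 588 CPM (0.90 ± 0.31, and 0.12 with the trend removed, adjusted p = 0.78). Of 23 heat shock proteins, 9 were higher and 1 lower, against 26.4% and 21.1% over all genes tested. Hsp90aa1, the inducible cytosolic chaperone, lay at 1131, 1432 and 1306 CPM against 220, 234 and 228 CPM (2.50 ± 0.24), which separated every organoid, with a minimum of 734 CPM, from every bulk library, with a maximum of 285 CPM.

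Immediate early genes, which respond within minutes to handling or growth signals, were split, with 13 of 38 higher and 12 lower (8 and 7 without the Set3 pair, and 4 lower against the other passage). Fos lay at 458, 290 and 315 CPM in organoid sums and 34.8, 37.2 and 49.6 CPM in bulk sums (3.11 ± 0.28), and Jun at 209, 182 and 143 CPM against 16.4, 42.0 and 39.9 CPM. Myc was lower, at 26.3, 29.1 and 22.7 CPM against 242, 86.3 and 86.0 CPM (-2.23 ± 0.33). Genes of hypoxia and glycolysis were more often lower, with 17 of 38 lower and 1 higher, and 8 lower without the Set3 pair and 10 against the other passage. Slc2a1, the glucose transporter, lay at 15.6, 27.5 and 25.3 CPM against 45.1, 86.7 and 58.3 CPM. Gdf15, a stress cytokine in the p53 list (9 of 29 lower, 5 higher, and 5 and 3 without the Set3 pair), lay at 0.900, 1.42 and 1.15 CPM against 46.9, 150 and 84.7 CPM (-6.19 ± 0.33). Of 31 Nrf2 antioxidant genes 12 were lower and 4 higher, with 7 lower without the Set3 pair. Of 7 genes of metallothioneins and zinc transport 1 was lower and 1 higher. Over all genes 26.4% were higher and 21.1% lower, and the higher calls of the hypoxia, p53 and Nrf2 lists lay below that share.

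The ductal markers did not differ alike between single organoids and bulk cultures. Epcam, the epithelial adhesion molecule, lay at 441, 569 and 479 CPM in organoid sums and 398, 535 and 590 CPM in bulk sums (log2 fold change -0.02 ± 0.23, adjusted p = 0.95). Sox9, the ductal transcription factor, lay at 88.5, 102 and 101 CPM against 89.0, 67.6 and 61.8 CPM (0.43 ± 0.25, adjusted p = 0.18). The keratins of bile duct epithelium were lower in all 3 pairs, Krt19 at 699, 378 and 492 CPM against 1039, 844 and 853 CPM (-0.84 ± 0.24, adjusted p = 0.015) and Krt7 at 380, 375 and 452 CPM against 790, 596 and 584 CPM (-0.70 ± 0.24, adjusted p = 0.035). Neither keratin was called once the same trend was removed (adjusted p = 0.32 for Krt19 and 0.17 for Krt7). Of 56 genes of the ductal and progenitor list, 18 were higher and 12 lower (4 lower without the Set3 pair and 7 against the other passage), near the shares over all genes. Cftr had the largest difference. It lay at 1.46, 8.61 and 1.76 CPM in organoid sums and 249, 240 and 217 CPM in bulk sums (-6.38 ± 0.52, adjusted p = 8.9e-06), and no organoid exceeded 10.5 CPM. In the dome and suspension cultures Cftr lay at 10.7 to 24.8 CPM, between both groups. Cldn4, a tight junction claudin, lay at 29.3, 78.2 and 41.8 CPM against 167, 420 and 399 CPM, and was not called against the bulk cultures of the other passage. Jag1, the Notch ligand of developing ducts, was higher, at 847, 1341 and 694 CPM against 203, 272 and 212 CPM (2.03 ± 0.25). Axin2, a Wnt target, lay at 16.4, 21.1 and 30.5 CPM against 2.37, 3.19 and 1.19 CPM. Lgr5, the Wnt-responsive stem cell receptor, was scarce in both, at 0.559 to 2.93 CPM and 2.16 to 2.63 CPM (adjusted p = 0.40), and Notch2 differed little (0.76 ± 0.28, adjusted p = 0.044) and was not called when any one of the 3 pairs was left out.

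Of 31 tested hepatocyte genes, 7 were higher and 4 lower (4 higher without the Set4 pair and 9 lower without the Set1 pair). Both shares lay below the 26.4% and 21.1% over all genes. Of 60 xenobiotic and steroid metabolism genes 2 were higher and 19 lower, with 12 lower without the Set3 pair and 7 against the other passage. Fah, the last enzyme of tyrosine breakdown, lay at 9.34, 11.9 and 9.73 CPM against 7.99, 2.06 and 2.9 CPM (1.41 ± 0.43, adjusted p = 0.021, and 0.21 without the Set3 and 0.097 without the Set4 pair). Hnf4a, the hepatocyte nuclear receptor, lay at 38.2, 28.3 and 24.5 CPM against 47.9, 39.8 and 45.8 CPM (-0.57 ± 0.25, adjusted p = 0.083). Apoe, an apolipoprotein, lay at 293, 77.2 and 54.3 CPM against 3.24, 42.8 and 10.2 CPM, and Set1 organoid 3 alone held 1606 CPM. Tbx3, a hepatoblast factor, was highest in the organoids of Set1, with sums of 68.2, 7.82 and 8.61 CPM against 7.34, 7.32 and 1.87 CPM, and was not called without the Set4 pair (adjusted p = 0.059), against the bulk cultures of the other passage (adjusted p = 0.20) or with the transcript trend removed (log2 fold change 0.66, adjusted p = 0.35, against 1.85 before). Cyp2j6 was lower, at 22.1, 19.0 and 12.0 CPM against 43.8, 53.9 and 45.1 CPM (-1.47 ± 0.28). Cyp2b10 (adjusted p = 0.15) and Cyp2c29 (adjusted p = 0.019, and 0.052 without the Set3 pair) lay below 6 CPM in all sums.

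Of 44 genes of sterol and fatty acid synthesis, 14 were higher and 3 lower, a share of higher calls near the 26.4% over all genes, with 9 higher and 1 lower without the Set3 pair and 13 higher and 6 lower with the transcript trend removed. Idi1, an isomerase of the mevalonate pathway, lay at 41.3, 57.4 and 22.4 CPM against 5.83, 2.06 and 2.38 CPM. Of 35 YAP and SRF targets 11 were higher and 4 lower, with 6 higher without the Set3 pair. Of 42 integrins, laminins, collagens and matrix proteases 12 were higher and 11 lower, with 5 lower without the Set3 and 6 without the Set4 pair. The shares of higher calls in both lists lay near that over all genes.

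**Figure D3:**
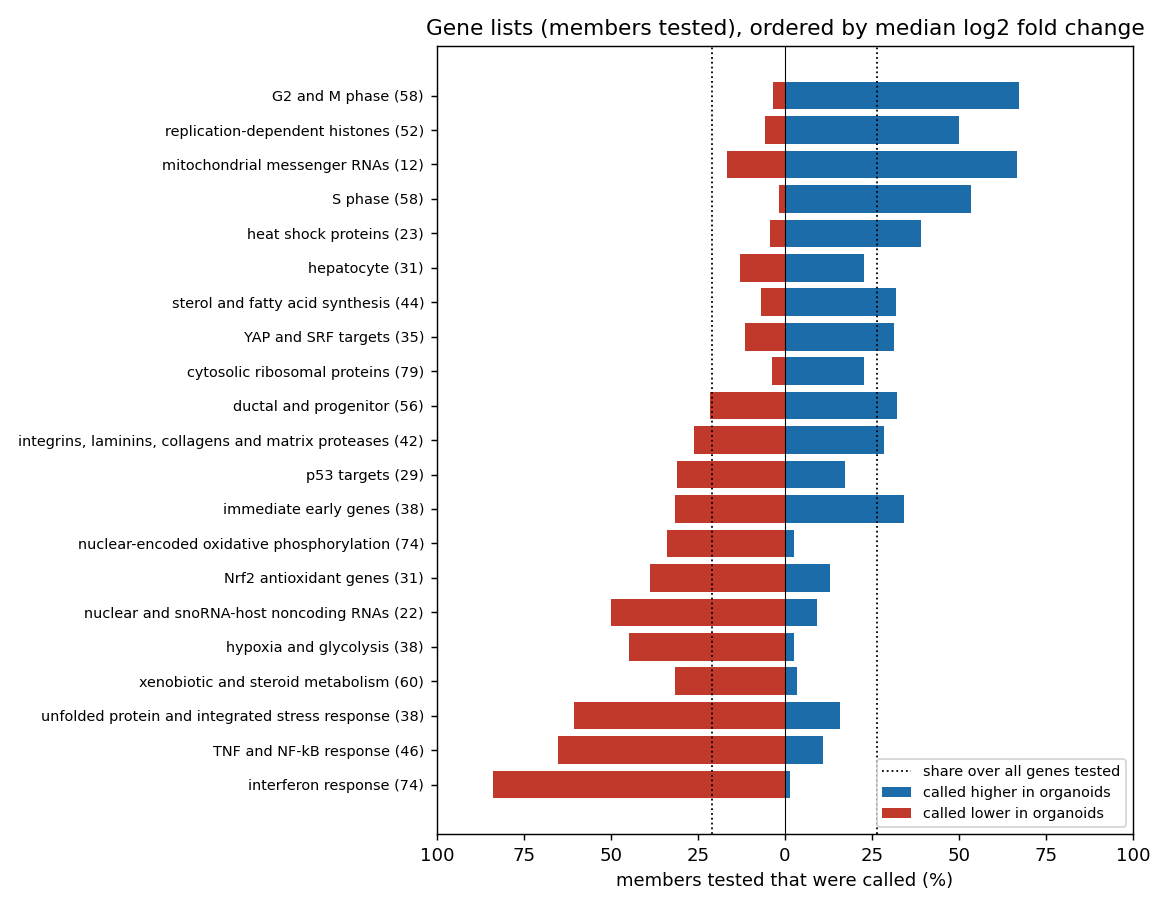
Share of tested members called higher (right, blue) or lower (left, red) in single organoids for the lists with at least 10 members tested, ordered by median log2 fold change. Dotted lines mark the shares over all genes tested (26.4% higher and 21.1% lower), and the G2 and M phase and interferon lists lie at the ends.

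Most messages made in the mitochondrion were higher in single organoids, while most nuclear genes of oxidative phosphorylation were not called. Mitochondrial genes took 2.42% to 4.28% of the counts in single organoids and 0.891% to 2.63% in bulk libraries, with the lowest values in the Set1 bulk culture. Of 12 tested mitochondrial messenger RNAs, 8 were higher and 2 lower, against 26.4% and 21.1% over all genes tested. mt-Nd5, a subunit of complex I, lay at 1004, 1227 and 758 CPM in organoid sums and 48.8, 152 and 129 CPM in bulk sums (3.29 ± 0.36, adjusted p = 5.5e-05). mt-Co3, of complex IV, was among the lower ones, at 20.0, 24.2 and 23.9 CPM against 70.0, 149 and 113 CPM (-2.22 ± 0.26), and mt-Atp6 of the ATP synthase was the other. Of 74 nuclear-encoded genes of oxidative phosphorylation, 25 were lower, 2 higher and 47 not called, against 21.1% lower over all genes. Without the Set1 pair 12 of them were lower, and without the Set3 pair 4. Ndufa4 lay at 452, 338 and 593 CPM against 1765, 1108 and 1141 CPM (-1.54 ± 0.27). Of the 2 mitochondrial ribosomal RNAs, mt-Rnr1 was called higher (1.89 ± 0.36).

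Cytosolic ribosomal protein genes differed little as a group. They took 14.7% to 24.4% of the counts in organoids and 16.3% to 17.7% in bulk libraries. Of 79 genes 18 were higher and 3 lower, with 8 higher without the Set1 pair and 5 without the Set3 pair. The share of higher calls lay near the 26.4% over all genes. Rpl24, which shares its locus with Gm28037 on the same strand, was among the 3 lower ones, at 10.1, 9.08 and 13.1 CPM against 82.5, 95.5 and 100.3 CPM. Of 22 nuclear and snoRNA-host noncoding RNAs, 11 were lower and 2 higher, against 21.1% and 26.4% over all genes. Without the Set3 pair 5 were lower, and against the other passage 3, where Zfas1 was not called. Zfas1 lay at 163, 114 and 144 CPM against 346, 547 and 534 CPM. Actb, whose level set the input of the single organoid libraries, lay at 2008, 3621 and 2443 CPM against 2265, 1269 and 1212 CPM (0.79 ± 0.33, adjusted p = 0.071), and was called higher without the Set1 pair.

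Pseudogenes held many of the largest differences. Pseudogenes are copies of genes that share most of their letters with the parent, so a read can be placed on either. Among genes above 4 log2 CPM with a called difference over 4 on the log2 scale, 54 pseudogenes, 34 protein-coding genes and 5 long noncoding genes were lower, and 19 pseudogenes, 13 protein-coding genes and 2 long noncoding genes were higher. Of 2106 pseudogenes tested, 932 (44.3%) were lower and 453 (21.5%) higher, whereas of 11,894 protein-coding genes 2172 (18.3%) were lower and 3311 (27.8%) higher. Pseudogenes took 9.20% to 16.1% of the counts in organoids and 14.6% to 15.7% in bulk libraries.

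Rps19-ps12, a processed copy of the ribosomal protein gene Rps19 at chr16:79914460-79914871, lay at 0.838, 0.553 and 1.25 CPM in organoid sums and 757, 698 and 595 CPM in bulk sums (log2 fold change -9.55 ± 0.40). Its parent Rps19 averaged 3729 and 4479 CPM. Gm5779, at chr10:75344472-75353033, held 1 count in all organoids and 2240 in the bulk cultures, a ratio of 11,660 with a 95% counting interval of 2091 to 460,746. Over 330 pseudogenes named after a parent that was tested too, the median log2 fold change was -0.57, with 142 lower and 64 higher, and over their 151 parents it was 0.23. Gm15191, Gm11991 and Gm2710 are processed pseudogenes with the opposite difference, and Gm15191 lay at 96.7, 102 and 140 CPM against 1.08, 0.563 and 1.02 CPM. Counts of such copies cannot be assigned with certainty.

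A few protein-coding and antisense genes had differences of the same size. Nhlh2, a neuronal transcription factor, held 2 counts in the organoids and 1290 in the bulk cultures, a ratio of 3357 with a 95% counting interval of 928 to 27,753. Gm15133, which lies antisense to Trim12a on chromosome 7, lay at 0.062, 0.158 and 0.107 CPM against 428, 483 and 436 CPM, and Trim12c, a gene of the same family nearby, at 2.92, 5.37 and 2.19 CPM against 160, 168 and 145 CPM. In the dome and suspension cultures Gm15133 did not exceed 0.083 CPM while Trim12c reached 118 to 192 CPM. High Gm15133 was thus seen in the bulk cultures of the sets alone among the libraries compared. No source used here says whether counting used the strand. Sec14l4, Htr1d and Cux2 also belonged to the 12 protein-coding genes with the largest differences toward bulk, and their highest organoid values were 0.789, 1.03 and 1.3 CPM. On the higher side Cbx3, a heterochromatin protein, lay at 586, 1059 and 1055 CPM against 39.7, 23.8 and 23.8 CPM (4.95 ± 0.38), and Dek, a chromatin architect, at 424, 659 and 465 CPM against 27.9, 24.2 and 25.7 CPM (4.29 ± 0.29). Gm14226, which overlaps the agouti gene on the same strand, lay at 317, 26.2 and 50.2 CPM against 0.216, 0.563 and 0.341 CPM, highest in Set1.

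**Figure D4:**
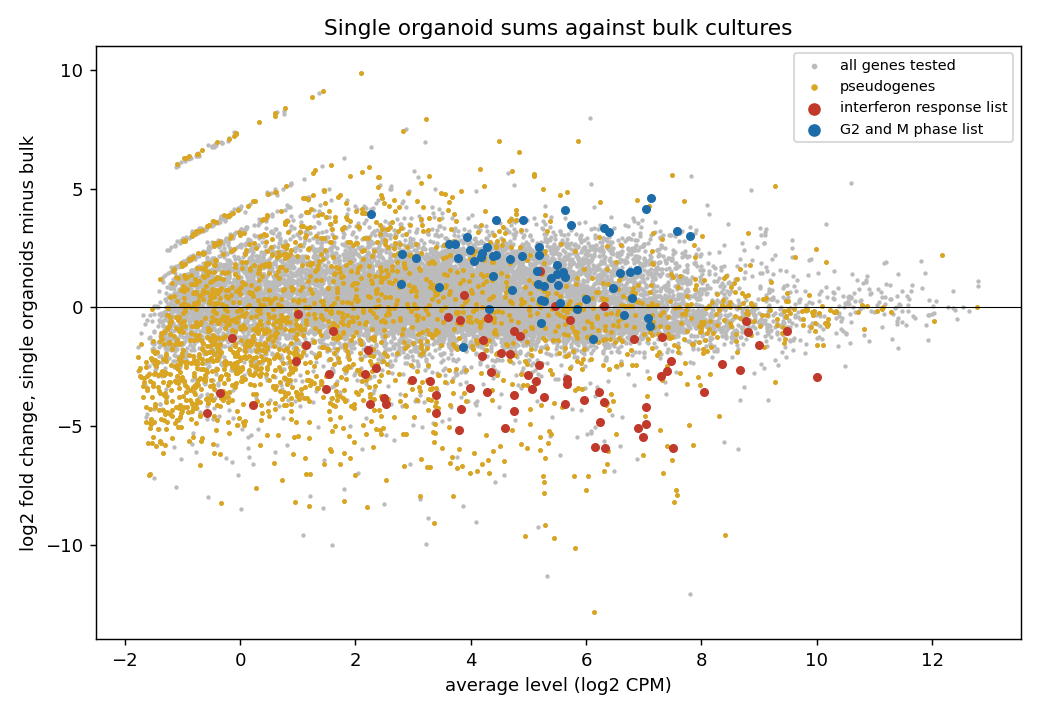
Log2 fold change (single organoids minus bulk, vertical) against average level in log2 CPM (horizontal) for 15,276 genes, with pseudogenes, the interferon list and the G2 and M phase list coloured. The interferon genes lie below 0 but for a few, the G2 and M phase genes mostly above, and pseudogenes reach the lowest values.

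Differences between organoids and bulk cultures followed 2 features of the transcript itself. The features were read from the longest coding transcript of each gene in GENCODE M21 (GRCm38), for 5736 protein-coding genes above 4 log2 CPM. They were its length and the largest number of A in any 20 consecutive bases outside the last 50 bases. Long transcripts were higher in the organoids. In the shortest quintile (297 to 1489 bases) the median log2 fold change was -0.47, with 8.62% of genes called higher and 38.6% lower, and in the longest quintile (from 4616 bases) it was 1.38, with 66.8% higher and 6.36% lower. Genes with at most 11 A in any window had a median of -0.54, with 4.73% higher and 40.0% lower, and genes with 16 A a median of 1.18, with 61.3% higher and 9.62% lower.

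The gradient with A held among transcripts of like length. In the middle quintile by length, the median was -0.48 for genes with up to 12 A and 0.62 for genes with 15 or more, and in the longest quintile -0.29 and 1.57. Spearman's rank correlation across genes was 0.46 for length, 0.50 for A and -0.25 for GC content, over genes that are not independent replicates. All 3 pairs showed it, with correlations for A of 0.51 in Set1, 0.52 in Set3 and 0.39 in Set4. The median of organoids minus suspension cultures went from -0.32 in the shortest to 1.09 in the longest quintile, and that of suspension minus bulk cultures from -0.16 to 0.27. Dome cultures went the other way, with a median of dome minus bulk cultures from -0.26 to -0.74 and of dome minus suspension cultures from -0.11 to -0.94.

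**Figure D5:**
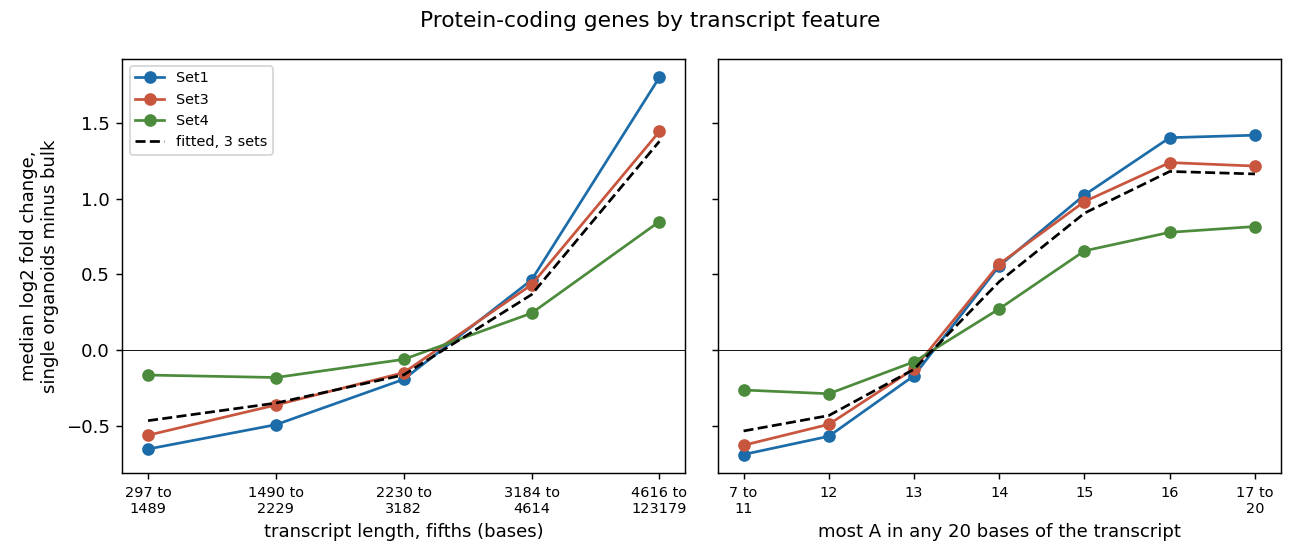
Median log2 fold change (single organoids minus bulk) of 5736 protein-coding genes by quintiles of transcript length in bases (left) and by the most A in any 20 bases (right). Coloured lines are the 3 sets and the dashed line is the fit, which rises from -0.47 to 1.38 over length and from -0.54 to 1.16 over A.

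The windows of 5 genes show what such stretches look like, with A in capitals. They are the 20 bases richest in A of the transcript, given 5′ to 3′ in the sense direction.
Dek: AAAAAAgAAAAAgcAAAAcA
Hmgb2: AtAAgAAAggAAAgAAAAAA
Mki67: ttAgAAAAAtctAAAAAAAA
Ccl2: gtccAgAcAtAcAttAAAAA
Cxcl10: AAAAAAAAAAAAAAcAAAAA
Dek (chr13:47084775-47106201, minus strand), Hmgb2 (chr8:57511907-57515999, plus strand) and Mki67 (chr7:135689784-135716361, minus strand) were higher in the organoids, and their windows of 16, 15 and 14 A lie in the coding sequence, at bases 923 to 942, 374 to 393 and 3454 to 3473 of the transcript. The window of Ccl2 (chr11:82035571-82037453, plus strand), which was lower, has 10 A in the coding sequence. Cxcl10 (chr5:92346638-92348889, minus strand) does not follow the gradient, since it has 19 A in a window of its 3′ UTR, at bases 594 to 613, and was among the genes most strongly lower.

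With the trend along both features removed by an offset, a step chosen after the trend was seen, 2696 (17.7%) of 15,255 genes were higher and 3125 (20.5%) lower. Of 7245 genes called before and tested again, 4594 were called again in the same direction. The lists at the ends kept their direction. Of the G2 and M phase genes 37 were higher and 3 lower (median 1.25), of the S phase genes 27 and 1, and of the interferon genes 0 were higher and 61 lower (median -3.06). Mki67 stayed higher at 3.21 and Cftr lower at -7.40. Other lists changed more. Ribosomal protein genes were then higher in 33 cases instead of 18, nuclear genes of oxidative phosphorylation lower in 8 instead of 25 and higher in 6 instead of 2, ductal and progenitor genes higher in 11 instead of 18, and YAP and SRF targets higher in 4 instead of 11. Among integrins, laminins, collagens and matrix proteases 3 were higher and 15 lower, where 12 and 11 had been called before.

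Across genes, the single organoid sums correlated more with the suspension cultures than with the bulk cultures. Over 6365 genes, Pearson's r of log2 CPM was 0.778 to 0.875 between organoid sums and the 3 suspension cultures, 0.612 to 0.773 with the 3 dome cultures, and 0.559 to 0.699 with the bulk cultures. The bulk cultures had r of 0.742 to 0.786 with suspension and 0.756 to 0.83 with dome cultures. These are correlations across genes, given as a description, and libraries of a table share their preparation. Counts by gene compare levels that were scaled separately, per library total in dome and suspension cultures and by TMM in the sums. A shift of all dome or suspension levels would move such counts in opposite directions for genes called higher and lower. How far such a shift enters the following counts was not tested. Among 1943 genes above 4 log2 CPM called higher in single organoids, the level in suspension cultures lay nearer to the organoids than to the bulk cultures for 495 (25.5%), and in dome cultures for 177 (9.11%). Among 1626 genes called lower it did so for 831 (51.1%) and 901 (55.4%). Hmgb2 shows the order in a single gene, with 58.9 to 136 CPM in domes, 453 to 1095 CPM in suspension and 2395 to 3585 CPM in the organoid sums. Cdk1 does not, with 145 to 174 CPM in suspension, above both the domes (21.7 to 65.3 CPM) and the organoid sums.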

How the data were processed

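The gene counts deposited by the authors for single organoids (28,773 genes) and bulk passage cultures (23,068 genes) were used, with those of dome and suspension cultures for reference. Per the study's methods and the labels, 3′-end libraries with molecular identifiers were processed with zUMIs, STAR and featureCounts, with SAMtools 1.9, on mm10 with Ensembl release 93, and down-sampled. No source used here says whether the whole-number counts are identifiers or reads. Single organoid libraries held 1,059,002 to 11,175,868 counts (1 count is then about 1 CPM at the smallest), and bulk libraries 2,071,228 to 3,175,147.

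Kept organoids and technical replicates were summed per set over 21,560 shared genes. Genes outside the shared ones took under 0.1% of counts. The tables were prepared separately, so table and group cannot be told apart. edgeR 4.0.16 in R 4.3.3 was used with filterByExpr (minimum count 3), TMM, set as a block and quasi-likelihood F-tests, with Benjamini-Hochberg adjustment at 0.05. Log2 fold changes are single minus bulk and standard errors come from the F statistic. P-values rest on the spread over 3 set-matched pairs, which differ in passage as well as in mouse, with dispersion estimates shared across genes. Sums with the same set come from the same mouse, but their deviations from the group means did not correlate throughout (-0.05, 0.35 and -0.38). The best correlation with another set was higher in each case (0.075, 0.37 and 0.47). Technical replicates differed by 1.35, 1.48 and 2.55 in chi-square per degree of freedom. Named genes were the 12 largest differences in each direction without overlap and with at least 4 log2 CPM, up to 3 per list, genes the study names and, added after values were seen, the 12 largest protein-coding ones and further list members used as examples. The members, the 27 lists and the comparison were chosen with earlier results of these data known. Symbols are from the gene name table (11 genes tested had none) and positions from GENCODE M21. Alternatives were RLE and upper quartile factors, other filters, limma-voom (limma 3.58.1), DESeq2 1.42.0, no replicate block, leaving out sets or organoids, equal weights, thinning, single technical replicates, the other passage, genes left out, single libraries and, chosen after seeing the data, protein-coding genes only, no pseudogenes or ribosomal protein genes, and an offset for the trend with transcript features. CPM of cell type markers, of list sums and of dome and suspension cultures are per library total, and other CPM are TMM-normalised. The scripts were tested on simulated data. Some named genes are not reported here. Intervals cover counting error only.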

Additional observations from a re-analysis of the deposited data

Results flagged for a closer look

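Among 196 comparisons of single values within the 8 organoids of Set1 or the 5 of Set3, 13 had 1 organoid far from the rest, where chance gives about 1 in 20. In Set1, Apoe was at 1606 CPM in organoid 3 with the next at 192, and Cyp2c29 at 9.02 CPM in organoid 5 with the next at 0.417. Organoid 8 of Set1 had the highest Ifit3b (5.88 CPM) and Cxcl10 (7.35 CPM), organoid 6 the highest Chac1 (5.63 CPM) and Saa3 (10.4 CPM), and organoid 1 the highest Cyp2b10 (2.71 CPM), all of them below the bulk libraries but for Cyp2b10. In Set3, organoid 3 stood apart in 5 of 6 cases, with Trim12c at 10.9 CPM, Me1 at 276 CPM, Crim1 at 53.7 CPM, Wwc1 at 203 CPM and a low Cdkn2b at 27.6 CPM. Organoid 4 of Set3 held the highest Egln1, at 25.4 CPM.

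Some genes were present in 1 table only and entered no comparison. Gm48359 (35.5 CPM) and Elavl3 (20.4 CPM) were found in the single organoid table, and Gm46992 (62.1 CPM) and Gm45471 (56.5 CPM) in the bulk table.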

How the results depend on the processing

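Each of the 7256 genes called that was tested again had the same direction in all alternatives, except with the bulk cultures of the other passage (7060 of 7087) and with the transcript trend removed (6887 of 7245). The counts of genes called were 4149 higher and 3449 lower with no replicate block, so the pairing moved them little, and changed the call of 3 named genes, Slc7a11, Ecm1 and Cyp2c29. Leaving out a set or an organoid of Set3 in turn gave 2664 to 4068 genes higher and 1687 to 3319 lower, with the lowest values without Set3 (2664 and 1687). The other tools, scalings, filters and library choices gave 3505 to 5055 higher and 2253 to 4680 lower, and the 3 settings chosen after seeing the data (trend removed, protein-coding genes only, pseudogenes and ribosomal protein genes left out) 2696 to 3233 higher and 2403 to 3125 lower. Upper quartile scaling moved the median over all genes from 0.07 to -0.06. The mean distance between organoid sums and their own bulk cultures was 4.21 over the 500 most variable genes and 1.77 with a prior count of 0.5, where distances within groups rose to 0.883 and 0.970 and to 0.899 and 0.915. Above 6 log2 CPM, 550 and 613 of 2516 genes had the bulk culture below and above all organoids, over fewer genes than the 6369 above 4 log2 CPM. Of 109 named genes none changed sign where the main or the alternative setting called it. Among genes not called, Sox9 ranged from -0.61 to 0.65, Epcam from -0.32 to 0.11 and Lgr5 from -1.70 to 0.03 over the alternatives. Calls of named genes were lost in 48 and gained in 14 comparisons. Calls were lost most often for Notch2 and gained most often for Actb and Hnf4a. The shallowest sums limit genes below about 1 CPM.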

Other observations

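The sets did not always differ in the same direction. For 94 of 6369 genes above 4 log2 CPM (1.48%), all organoids of 1 set lay above both bulk libraries of that set and all organoids of another set below theirs. The following genes were chosen after their values were seen, and the differences between sets were not tested. Ambp, which encodes a plasma protein made by hepatocytes, lay at 257, 76.4 and 64.3 CPM in the organoid sums of Set1, Set3 and Set4 and at 13.8, 258 and 183 CPM in the bulk sums. Ltb, lymphotoxin beta, lay at 44.4, 15.7 and 13.3 CPM against 2.59, 58.9 and 40.0 CPM, and Krt20, a keratin of differentiated gut epithelium, at 360, 31.7 and 26.0 CPM against 28.9, 71.5 and 35.1 CPM. In each of these genes the Set1 pair, both at passage 11, was reversed relative to the pairs of early passage. Ccna2, cyclin A, showed the opposite order, at 30.7, 45.0 and 60.6 CPM against 63.5, 16.7 and 12.8 CPM.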
